A study of Homo sapiens with 6 samples.

Results

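The enzymes that make, interconvert and recover guanine nucleotides were followed in 22RV1 cells, an established human prostate cancer line. The set was fixed by name as 10 genes: IMPDH1, IMPDH2, GMPS, GUK1, GMPR, GMPR2, HPRT1, PNP, NT5C2 and GDA. Of these, 9 were among the 17811 genes listed, and all 9 were tested. GDA, the guanine deaminase gene, has no row in the table used, so its expression was not analysed here. Poly(A)-selected RNA was sequenced from stable lines in 3 groups, 2 libraries each. The control line expresses shLuc, a control short hairpin RNA, and the knockdown lines express shIMPA1 or shIMPDH2, named for the gene each targets. The medium was RPMI-1640 with 10% serum (FBS) for every line, and no other agent is named. Each group is 1 stable line, and nothing in the labels says that its 2 libraries came from separate cultures, so the p-values reflect library-to-library spread alone, and that spread may be technical. With each group taken as 1 line, a hairpin's effect on its target and any other property of that line cannot be told apart.

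Guanine nucleotides are made from IMP, the branch point of purine synthesis. IMP dehydrogenase (the isozymes IMPDH1 and IMPDH2) oxidises IMP to XMP, the rate-limiting step, and GMP synthetase (GMPS) aminates XMP to GMP. Guanylate kinase (GUK1) phosphorylates GMP to GDP, while GMP reductase (GMPR and GMPR2) returns GMP to IMP. Salvage recovers bases: purine nucleoside phosphorylase (PNP) splits guanosine and inosine, and HPRT1 joins guanine or hypoxanthine to phosphoribosyl pyrophosphate. The cytosolic nucleotidase NT5C2 removes the phosphate from IMP and GMP. The design asked how the transcriptome differs when IMPA1, an inositol monophosphatase gene, or IMPDH2 is lowered.

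Libraries held between 20828900 and 27773294 reads over the listed genes. The 9 enzymes were covered by 88 to 8800 reads per library, with GMPR the lowest in every library. IMPA1, the other target, had normalised counts of 1621 and 1331 in shLuc, 957 and 1101 in shIMPA1, with 1795 and 1842 in shIMPDH2. Its log2 fold change in shIMPA1 was -0.52 (SE 0.13, limma adjusted p = 0.0145). Luminal prostate markers, among them HOXB13, FOLH1, KRT8 and EPCAM, were listed. Of the list of 12, 4 were lower and 2 higher in shIMPA1, and 2 lower and 5 higher in shIMPDH2. Over all genes tested, 16.2% were called as lower and 14.0% as higher in shIMPA1, and 9.15% and 7.86% in shIMPDH2. None of 4 endothelial markers was listed. Of the blood markers, PTPRC, CD3E, CD14 and HBB were not listed, and LYZ stood under 1 CPM (reads scaled to the library total) in every library. The 6 listed of 8 fibroblast markers summed to 68.4 to 76.4 CPM in shLuc, 43.8 to 47.4 in shIMPA1 and 26.8 to 31.4 in shIMPDH2. DCN was under 1 in every library. VIM (-4.04 and -3.40) and LUM (-2.55 and -3.80) were lower in both shIMPA1 and shIMPDH2, and FN1 was called in neither (0.38 and -0.29). COL1A1 was lower in shIMPDH2 only (-0.19 in shIMPA1 and -0.80 in shIMPDH2), and COL3A1 in shIMPA1 only (-2.21 and -1.40). Of 5 neuroendocrine markers 3 were listed, summing to 464 to 482 CPM in shLuc, 387 to 482 in shIMPA1 and 436 to 446 in shIMPDH2. These markers did not move together. CHGA was higher in shIMPA1 (1.08) and lower in shIMPDH2 (-1.02). ENO2 was lower in shIMPA1 (-0.54) and not called in shIMPDH2 (-0.20), and SYP was called in neither (-0.01 and 0.13). The part of these markers in the results was not tested.

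In the control line the enzymes spanned a wide range of levels. On a per-length scale, RPKM (reads scaled to annotated exon length and library total), HPRT1 stood highest in shLuc at 76.6 ± 2.55 (SD, n = 2), followed by IMPDH2 at 68.5 ± 8.66 (SD, n = 2). GUK1 stood at 51.1 ± 7.06 (SD, n = 2) and PNP at 46.0 ± 1.23 (SD, n = 2), and these neighbours overlapped between libraries. IMPDH1 followed at 26.2 ± 2.73 (SD, n = 2), GMPR2 at 20.2 ± 0.591 (SD, n = 2), GMPS at 11.9 ± 1.02 (SD, n = 2) and NT5C2 at 7.30 ± 0.284 (SD, n = 2). GMPR was lowest at 1.74 ± 0.420 (SD, n = 2), and every other pair of neighbours in this order kept its libraries apart. For HPRT1 and IMPDH2 the gap was slight, at 74.8 and 74.7 RPKM in shLuc replicate 2, so their order is not settled. The order of the highest genes depended on the length used. Per length of the longest annotated transcript, IMPDH2 led at 116, GUK1 stood at 94.8 and HPRT1 at 88.5.

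HPRT1, GMPS and PNP were lower in shIMPA1, and GMPR was the enzyme with the largest rise in shIMPDH2, so the bases before the RefSeq starts of these 4 genes are shown. Promoter windows for 9 of the 10 genes, all but IMPDH2, came from RefSeq (GRCh38.p14), taken as the 250 bases before the annotated start. Capitals mark GC boxes, GGGCGG or CCGCCC on the other strand. The windows are chrX:134459915-134460164 (plus strand), chr3:155870400-155870649 (plus strand), chr14:20469156-20469405 (plus strand) and chr6:16238337-16238586 (plus strand), each written 5′ to 3′. The RefSeq starts lie downstream of the GENCODE gene starts used for the gene coordinates, by 12 bases for HPRT1, 7 for GMPR, 114 for GMPS and 452 for PNP, so the PNP window lies wholly inside the GENCODE gene. For NT5C2 and GDA, whose windows enter the motif counts only, the distance is 39485 and 34845 bases.
HPRT1: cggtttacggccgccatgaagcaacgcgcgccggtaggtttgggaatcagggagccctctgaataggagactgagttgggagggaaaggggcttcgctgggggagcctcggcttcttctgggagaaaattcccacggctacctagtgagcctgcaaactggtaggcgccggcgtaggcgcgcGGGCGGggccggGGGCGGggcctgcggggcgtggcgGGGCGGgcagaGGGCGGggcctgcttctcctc
GMPS: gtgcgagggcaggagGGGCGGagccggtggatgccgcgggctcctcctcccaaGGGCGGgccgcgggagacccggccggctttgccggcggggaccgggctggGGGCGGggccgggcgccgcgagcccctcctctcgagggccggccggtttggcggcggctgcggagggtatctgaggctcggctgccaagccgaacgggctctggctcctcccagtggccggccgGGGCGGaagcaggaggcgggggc
PNP: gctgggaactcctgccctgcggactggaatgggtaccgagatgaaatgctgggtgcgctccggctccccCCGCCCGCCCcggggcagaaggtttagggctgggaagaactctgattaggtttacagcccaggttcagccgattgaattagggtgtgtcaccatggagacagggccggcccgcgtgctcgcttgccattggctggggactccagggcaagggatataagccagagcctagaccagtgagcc
GMPR: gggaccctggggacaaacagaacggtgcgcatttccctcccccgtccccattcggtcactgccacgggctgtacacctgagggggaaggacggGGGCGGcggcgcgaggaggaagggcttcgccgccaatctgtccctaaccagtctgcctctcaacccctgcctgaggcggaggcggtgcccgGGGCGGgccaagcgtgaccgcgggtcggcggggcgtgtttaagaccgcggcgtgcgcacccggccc

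HPRT1 held 4 GC boxes within 68 bases of its start, and GMPS held 4 spread over 235 bases. PNP held 2 that overlap each other, and GMPR held 2. A GC box occurred in 8 of the 9 windows, all but that of NT5C2, against 42.3% of 27305 RefSeq promoters of the same length. The CCAAT box (CCAAT or ATTGG) occurred in 4 of the 9, GMPR, GMPR2, PNP and GDA, against 33.0%. Both strands were searched for 4 further motifs, which had no match in the 9 windows: CACGTG (in 6.49% of all promoters), CCGGAAG (8.82%), TGACGTCA (1.77%) and TTTGGCGC (0.553%). None of the motifs contains another.

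IMPDH2, the hairpin's own target, fell 1.52-fold in shIMPDH2. Its gene (ENSG00000178035) lies on GRCh38 chromosome 3, 49024325 to 49029408, on the minus strand. Normalised read counts, which are reads divided by 1 factor per library, were 4270 and 5032 in shLuc, 4435 and 5055 in shIMPA1, with 2932 and 3166 in shIMPDH2. Both shIMPDH2 libraries lay below the other 4, which overlapped. In such bulk samples, fewer cells of a type and less RNA per cell cannot be told apart. The log2 fold change of shIMPDH2 against shLuc, on the log2(value + 1) scale used throughout, was -0.61 (SE 0.13, limma adjusted p = 0.00999), and that of shIMPA1 was 0.03 (95% interval -0.26 to 0.32, limma adjusted p = 0.883). Directly between the knockdowns it was -0.64 (limma adjusted p = 0.00539). The call against shLuc did not hold on leaving out shLuc replicate 2 (-0.49, limma adjusted p = 0.127), without shIMPDH2 replicate 1 (0.115) or replicate 2 (0.0787), and with no mean-variance trend (0.0612).

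IMPDH1, the other isozyme, is encoded on chromosome 7, 128392277 to 128410252, and was not called in any comparison. It stood at 2188 and 2500 in shLuc, 2476 and 2175 in shIMPA1, with 2779 and 2913 in shIMPDH2. Both shIMPDH2 libraries were above all others. The log2 fold change was 0.28 against shLuc (95% interval 0.01 to 0.56, limma adjusted p = 0.144) and 0.29 against shIMPA1 (limma adjusted p = 0.106). With only the libraries of shLuc and shIMPDH2 in the fit, the first value passed (limma adjusted p = 0.0265). That fit called 36.5% of all genes, against 17.0% with all 6 libraries. The annotation holds 10 IMPDH1 pseudogenes, of which the 2 listed, IMPDH1P8 and IMPDH1P5, reached at most 29.7 and 20.8, so reads shared with such copies make the level of IMPDH1 less certain.

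The balance of the isozymes differed in the shIMPDH2 line. Per exon length, IMPDH2 made up 72.0% and 72.7% of the summed IMPDH1 and IMPDH2 level in shLuc, 70.3% and 75.4% in shIMPA1, with 58.2% and 58.9% in shIMPDH2. The shIMPDH2 libraries were below the other 4. The mean ratio of IMPDH2 to IMPDH1 was 1.41 in shIMPDH2 (SD 0.0299, n = 2), 2.62 in shLuc (SD 0.0574, n = 2) and 2.72 in shIMPA1 (SD 0.498, n = 2). The summed level was 86.6 and 103 RPKM for the control libraries, 96.7 and 101 for shIMPA1, and 75.5 and 76.7 for shIMPDH2, so both shIMPDH2 libraries were again the lowest. The share was not tested. With the longest transcript as the length, the mean shares were 77.7%, 78.1% and 65.2%.

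**Figure D1:**
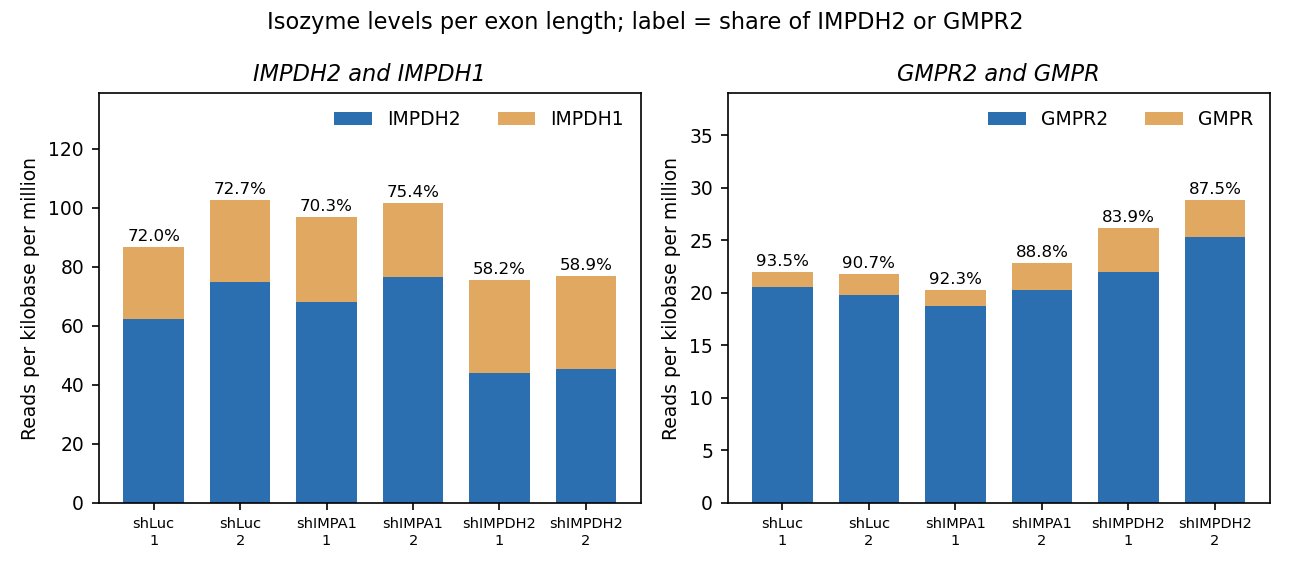
Stacked bars give RPKM in each library, for IMPDH2 with IMPDH1 (left) and GMPR2 with GMPR (right), and the label is the percent contributed by IMPDH2 or GMPR2. The IMPDH2 share is 58.2% and 58.9% in the shIMPDH2 libraries and at least 70.3% in the others.

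GMPS, which completes the synthesis of GMP, was lower in shIMPA1. The gene lies on chromosome 3, 155870536 to 155944026. Normalised counts were 2442 and 2718 in shLuc, 1822 and 1882 in shIMPA1, with 2656 and 2456 in shIMPDH2. Both shIMPA1 libraries lay below the other 4. It fell by 0.48 on the log2 scale in shIMPA1 (SE 0.12, limma adjusted p = 0.0114), and the value in shIMPDH2 was -0.01 (95% interval -0.27 to 0.25, limma adjusted p = 0.955). The difference between the knockdowns was itself called, at 0.46 (limma adjusted p = 0.0150). Without shLuc replicate 2 the value in shIMPA1 was -0.40 and the call was lost (limma adjusted p = 0.114), as it was with no mean-variance trend (0.0526).

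GUK1, the step from GMP to GDP, rose in shIMPDH2. The gene lies on chromosome 1, 228139962 to 228148984. Its normalised counts were 6542 and 5299 in shLuc, 6670 and 7593 in shIMPA1, with 8549 and 9420 in shIMPDH2. The 3 groups did not overlap, with shIMPA1 between the others. The log2 fold change was 0.61 in shIMPDH2 (SE 0.14, limma adjusted p = 0.0144) and 0.27 in shIMPA1 (95% interval -0.04 to 0.58, limma adjusted p = 0.170). The knockdowns differed by 0.33, which did not pass (limma adjusted p = 0.106). The call in shIMPDH2 did not hold on leaving out shLuc replicate 2 (0.46, limma adjusted p = 0.159), without shIMPDH2 replicate 1 (0.0799) or replicate 2 (0.161), and with no mean-variance trend (0.0729).

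GMPR, the reductase that runs from GMP back to IMP, had the largest rise of the set. The gene lies on chromosome 6, 16238580 to 16295549. Its normalised counts were low, 79.2 and 110 in shLuc, 81.7 and 135 in shIMPA1, with 226 and 202 in shIMPDH2, from 88 to 196 reads. Both shIMPDH2 libraries were above the other 4, which overlapped. The rise in shIMPDH2 was 2.28-fold, a log2 fold change of 1.19 with an SE of 0.25 (limma adjusted p = 0.00949). In shIMPA1 the value was 0.17 (95% interval -0.39 to 0.73, limma adjusted p = 0.650), and the knockdowns differed by 1.02 (limma adjusted p = 0.0138), a value that was 0.66 without shIMPA1 replicate 1 and 1.38 without shIMPA1 replicate 2. The call against shLuc did not hold on leaving out shLuc replicate 1 (0.95, limma adjusted p = 0.135), without shIMPDH2 replicate 1 (0.0996) or replicate 2 (0.0749), and with no mean-variance trend (0.0566).

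GMPR2, the more abundant reductase (chromosome 14, 24232422 to 24239242), was not called. It stood at 1847 and 1746 in shLuc, 1603 and 1756 in shIMPA1, with 1922 and 2321 in shIMPDH2. The shIMPDH2 libraries were the highest, with a log2 fold change of 0.23 against shLuc (95% interval -0.05 to 0.52, limma adjusted p = 0.239). Per exon length GMPR2 made up 93.5% and 90.7% of the summed reductase level in shLuc, 92.3% and 88.8% in shIMPA1, with 83.9% and 87.5% in shIMPDH2. It shares 33 exon bases with NEDD8 on the opposite strand, which is 0.907% of its exon bases.

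HPRT1, the salvage enzyme for guanine and hypoxanthine, showed the largest change of any of the 9 in shIMPA1. The gene lies on chromosome X, 134460153 to 134520513. Normalised counts were 3142 and 2953 in shLuc, 1277 and 1127 in shIMPA1, with 2313 and 2546 in shIMPDH2. The 3 groups were apart, with shIMPDH2 between the others. The fall in shIMPA1 was 2.54-fold, a log2 fold change of -1.34 with an SE of 0.12 (limma adjusted p = 3.06e-05). In shIMPDH2 the value was -0.33 (95% interval -0.59 to -0.06, limma adjusted p = 0.0889). It passed with only the libraries of shLuc and shIMPDH2 in the fit (limma adjusted p = 0.00899), where 36.5% of all genes were called, against 17.0%. The knockdowns differed by 1.02 (limma adjusted p = 0.000222), and both the shIMPA1 call and this one held in all 14 alternative fits.

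PNP, which feeds bases to HPRT1, was lower in shIMPA1. The gene lies on chromosome 14, 20468954 to 20477094. It stood at 4789 and 4544 in shLuc, 3102 and 3015 in shIMPA1, with 4280 and 4693 in shIMPDH2. Both shIMPA1 libraries lay below the other 4, and shLuc and shIMPDH2 overlapped. In shIMPA1 PNP was 1.53-fold lower, a log2 fold change of -0.61 with an SE of 0.12 (limma adjusted p = 0.00293), a call that held in all 14 alternative fits. The value in shIMPDH2 was -0.06 (95% interval -0.31 to 0.20, limma adjusted p = 0.771), and the knockdowns differed by 0.55 (limma adjusted p = 0.00613). A noncoding gene on the opposite strand covers 11.9% of the exon bases of PNP.

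NT5C2, the IMP and GMP nucleotidase, was not called. The gene lies on chromosome 10, 103088017 to 103193306. It stood at 903 and 940 in shLuc, 1078 and 1185 in shIMPA1, with 1146 and 1070 in shIMPDH2. Both knockdown lines were above shLuc and overlapped each other, with log2 fold changes of 0.29 in shIMPA1 (limma adjusted p = 0.0865) and 0.27 in shIMPDH2 (limma adjusted p = 0.154). These comparisons share the shLuc libraries. CNNM2, on the opposite strand, overlaps 36.7% of the exon bases of NT5C2, and whether strand was used in counting is not given in the sources used here, so its level is uncertain.

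**Figure D2:**
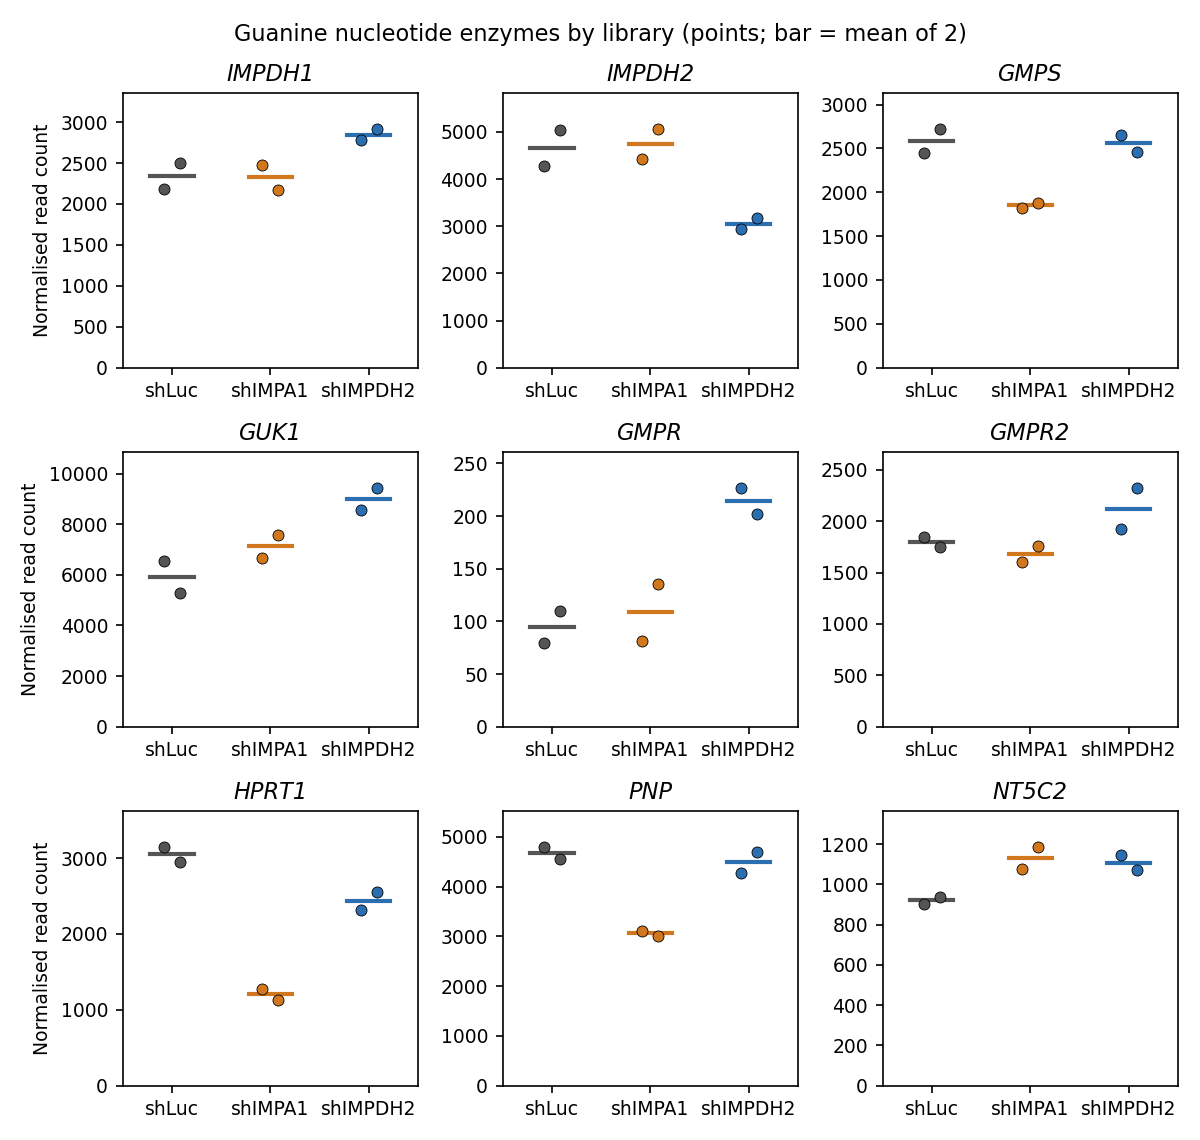
Each panel gives the normalised read count of 1 enzyme gene on a linear axis from 0, with a point for each of the 2 libraries of a group and a bar at their mean. HPRT1, PNP and GMPS are lowest in shIMPA1, while in shIMPDH2 IMPDH2 is lowest and GMPR and GUK1 are highest. IMPDH1 and GMPR2, which were not called, are also highest in shIMPDH2.

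Counted over the set, shIMPA1 had 3 of 9 enzymes lower and 0 higher than shLuc. Of all 17742 genes tested, 30.2% were called in that comparison, 16.2% lower and 14.0% higher, so the share of the set was near the background. The median log2 fold change of the 9 was -0.01, against 0.02 over all genes tested. Without shIMPA1 replicate 1 the count of called enzymes was 6, with GUK1, GMPR and NT5C2 also called as higher, and calls over all genes rose too, to 45.0%.

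In shIMPDH2, 2 of 9 enzymes were higher and 1 was lower than in shLuc, and the lower one was IMPDH2, the target itself. Over all genes tested, 17.0% were called, 7.86% higher and 9.15% lower. The median of the 9 was 0.23, against -0.01 over all genes tested. The count of 3 became 0 without either shIMPDH2 library, where 5.64% and 4.74% of all genes were called, and 0 with no mean-variance trend, where 9.73% were. The log2 fold changes without 1 shIMPDH2 library were -0.55 and -0.66 for IMPDH2, 0.68 and 0.54 for GUK1, and 1.11 and 1.27 for GMPR. In these fits the lone library is assumed to vary like those of the other groups. Without shLuc replicate 1 the count was 2 (4.55% of all genes called), and without shLuc replicate 2 it was 1 (4.38%). It became 6 with only the 2 groups in the fit (36.5%) and without either shIMPA1 library (36.2% each), so the enzymes' count moved in the same direction as the share over all genes.

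Directly between the knockdowns, 4 of 9 enzymes were higher in shIMPDH2 (GMPS, GMPR, HPRT1 and PNP) and 1 was lower (IMPDH2). Over all genes tested 26.1% were called, 13.5% higher and 12.6% lower. The median of the 9 was 0.33, against -0.00402 over all genes tested. Both libraries of shIMPDH2 were above both of shIMPA1 for 7 enzymes and below for IMPDH2, while NT5C2 overlapped, and over all genes tested 31.5% were above and 32.4% below in this way. Without shIMPDH2 replicate 1 or replicate 2 the count went from 5 to 2, with 10.6% and 8.09% of all genes called, and with no mean-variance trend to 3, with 16.4% called. GMPS and GMPR lost their calls in each of these 3 fits, IMPDH2 without shIMPDH2 replicate 1 and PNP without shIMPDH2 replicate 2.

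**Figure D3:**
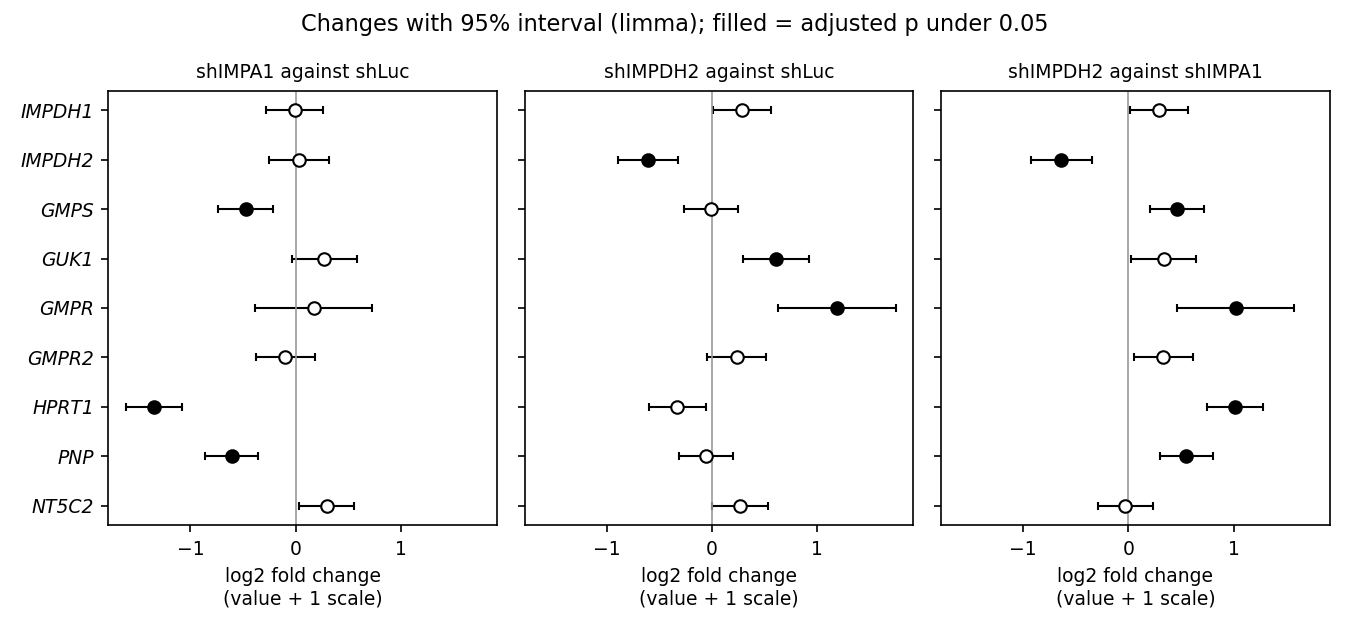
Points give the log2 fold change of each enzyme in the 3 comparisons, with the 95% interval from limma as a bar, and filled points have a limma adjusted p under 0.05. HPRT1 at -1.34 in shIMPA1 and GMPR at 1.19 in shIMPDH2 are the values furthest from 0 against shLuc.

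DNA replication genes, which are higher in dividing cells, were lower in shIMPA1, as were the salvage enzymes HPRT1 and PNP. All 10 of a list of 10 were lower in shIMPA1, including the helicase subunits MCM3 (-1.47) and MCM6 (-1.29) and the licensing factor CDC6 (-1.53), with a median log2 fold change of -1.46. Their summed level was 3086 and 3345 CPM in shLuc, 1708 and 1216 in shIMPA1, with 2423 and 2416 in shIMPDH2. The 3 groups did not overlap in this sum. In shIMPDH2 only MCM3 was called (-1.70), with a list median of -0.26. Over all genes tested, 16.2% were called as lower in shIMPA1 and 9.15% in shIMPDH2. The share of reads from mitochondrially encoded genes was 1.65% and 1.81% in shLuc, 1.29% and 0.992% in shIMPA1, with 1.55% and 1.28% in shIMPDH2. The part of either in the enzyme results was not tested.

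Upstream of the branch point, 4 of 8 enzymes of IMP synthesis were lower in shIMPA1 and none was called in shIMPDH2. Over all genes tested, 30.2% were called in shIMPA1 (16.2% lower) and 17.0% in shIMPDH2. The list medians were -0.45 and -0.05. PRPS1 and PRPS2, which make the phosphoribosyl pyrophosphate that HPRT1 uses, fell most. PRPS1 had normalised counts of 2311 and 2513 in shLuc, 1070 and 1157 in shIMPA1, with 2011 and 2261 in shIMPDH2 (-1.11 in shIMPA1, limma adjusted p = 0.000102). PRPS2 stood at 1841 and 1875, 1042 and 767, and 1375 and 1444 in the same order (-1.05, limma adjusted p = 0.000503). PAICS, a bifunctional enzyme of the pathway, fell by 0.64 on the log2 scale (limma adjusted p = 0.00408). Between the knockdowns PRPS1 (0.94), PAICS (0.76) and PRPS2 (0.66) were called as higher in shIMPDH2, where 13.5% of all genes tested were.

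On the adenine side, 12 of 13 genes were tested. AMPD3, an AMP deaminase that returns AMP to IMP, was the 1 gene lower in shIMPA1, at 50.3 and 38.8 against 123 and 148 in shLuc (log2 fold change -1.59, limma adjusted p = 0.000598). In shIMPDH2, AMPD3 (-0.89) and adenosine deaminase ADA (-0.71) were lower and the adenylate kinase AK4 (0.62) was higher. The list medians were 0.14 and 0.15. These calls stand beside 30.2% of all genes called in shIMPA1 and 17.0% in shIMPDH2.

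Among 9 tested nucleotidases and degradation or deoxynucleoside enzymes, SAMHD1, a dNTP hydrolase activated by GTP or dGTP (-0.97), and deoxycytidine kinase DCK (-0.38) were lower in shIMPA1, and the nucleotidase NT5C3B was higher (0.37). Mitochondrial deoxyguanosine kinase DGUOK, which salvages deoxyguanosine, was the 1 called gene in shIMPDH2, at 846 and 862 against 1158 and 1095 in shLuc and a log2 fold change of -0.40 (limma adjusted p = 0.0363). It was also lower in shIMPDH2 than in shIMPA1 (-0.55). XDH, the xanthine dehydrogenase that ends purine breakdown, stayed under 1 CPM in every library. The list medians were 0.15 in shIMPA1 and 0.02 in shIMPDH2, and 30.2% and 17.0% of all genes were called in these lines.

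Nucleoside diphosphate kinases, which make GTP from GDP, and ribonucleotide reductase formed a list of 9. In shIMPA1 the reductase subunits RRM1 (-1.34), RRM2 (-1.36) and RRM2B (-0.68) and the kinase family member NME7 (-1.46) were lower, and NME6 was higher (0.51). The shIMPA1 libraries differed in level, at 6237 and 2854 for RRM2 (10075 and 11687 in shLuc). For RRM1 they stood at 2274 and 1524 (4292 and 5178 in shLuc). In shIMPDH2, NME4 was lower (-0.90, limma adjusted p = 0.0257) and RRM2B higher (0.41, limma adjusted p = 0.0401). NME1 was not called in either line, at -0.32 and -0.21. The list medians were -0.32 in shIMPA1 and -0.01 in shIMPDH2, and 30.2% and 17.0% of all genes were called in these lines.

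Of 5 tested purine transporters, the equilibrative nucleoside transporter SLC29A2 was lower in both lines. Its log2 fold change was -0.49 in shIMPA1 (limma adjusted p = 0.0457) and -0.55 in shIMPDH2 (limma adjusted p = 0.0438). SLC29A2 counts were 1964 and 1311 in shIMPA1, against 2175 and 2340 in shLuc. SLC29A1 was lower in shIMPDH2 (-0.41, limma adjusted p = 0.0404). All 3 adjusted p-values lie near the threshold of 0.05. Both comparisons share the shLuc libraries. The list medians were -0.07 and -0.24. In a list of 9 proteins that use or respond to GTP, CTP synthase CTPS1, an enzyme activated by GTP, was the 1 call in shIMPDH2, at 1216 and 1252 against 1806 and 1956 in shLuc and a log2 fold change of -0.61 (limma adjusted p = 0.00496). The other CTP synthase gene, CTPS2, was not called against shLuc (-0.34 in shIMPA1 and 0.33 in shIMPDH2). It was higher in shIMPDH2 than in shIMPA1 (0.66), as were 13.5% of all genes tested. The nucleolar GTP-binding protein gene GNL3 was the 1 call in shIMPA1 (0.50). The list medians were -0.27 in shIMPA1 and -0.07 in shIMPDH2. The calls of both lists stand beside 30.2% of all genes called in shIMPA1 and 17.0% in shIMPDH2.

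**Figure D4:**
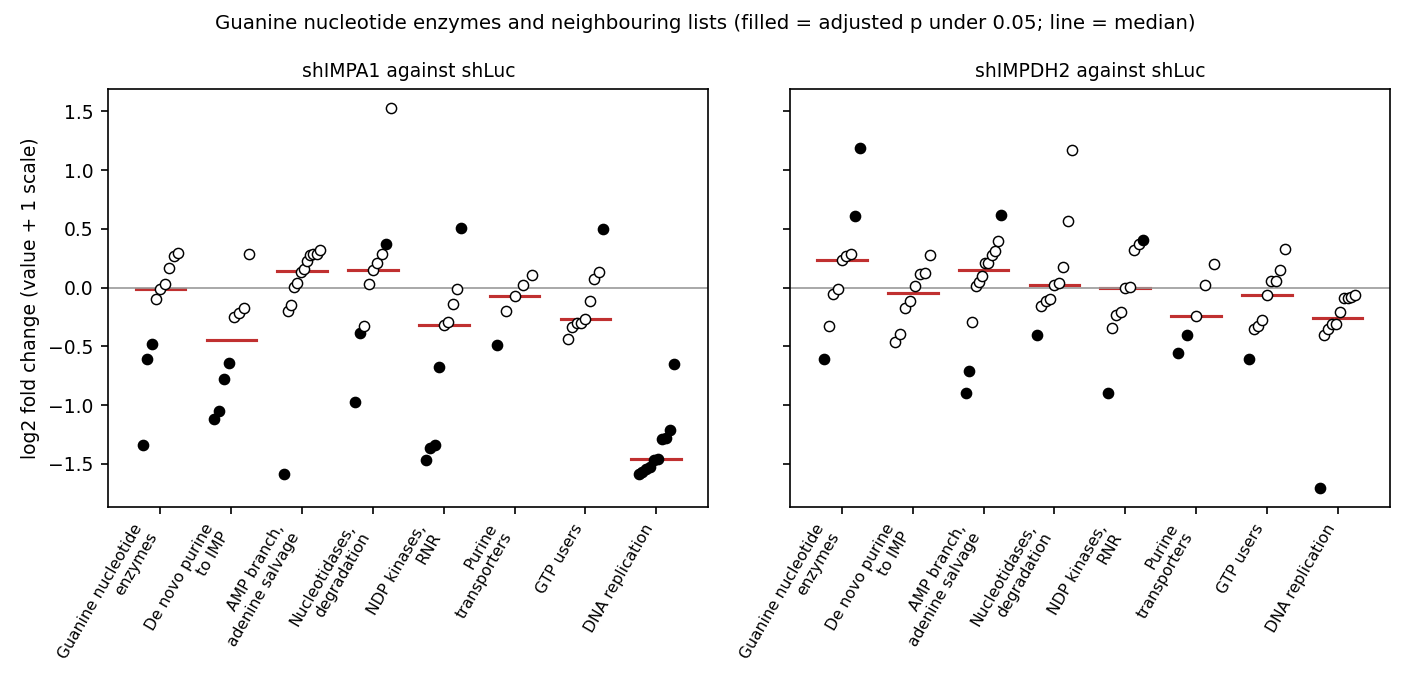
Each point is the log2 fold change of 1 gene against shLuc in shIMPA1 (left) or shIMPDH2 (right), by list, filled where the limma adjusted p is under 0.05, and the line is the list median. The DNA replication list has a median of -1.46 in shIMPA1 and -0.26 in shIMPDH2, beside -0.01 and 0.23 for the guanine nucleotide enzymes.

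The genes whose pattern over the 6 libraries was nearest to that of IMPDH2 were AC129492.1, ANKS6 and FAM241A. Their centred log2 levels differed from those of IMPDH2 by a root mean square of 0.05, 0.06 and 0.07, among 13722 candidates with at least 2 CPM, where IMPDH2 itself varied by 0.31. For HPRT1, which varied by 0.58, the nearest were RPL7AP28 (0.07), TRIM47 (0.08) and AL390198.1 (0.10).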

How the data were processed

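Poly(A) RNA of 6 libraries was sequenced, 2 for each of 3 hairpin names. The submitters' processing notes name Trimmomatic 0.36, STAR 2.5.2b, DESeq2, Subread 1.5.2 and the build GRCh38. Unique exonic reads were counted per gene with featureCounts, per the labels' protocols. The deposited signal values are reads divided by 1 size factor per library: taking the smallest step of each library as 1 read, 99.98% to 100% of its values came out whole to within 0.05 reads. The 3 columns of the authors' own comparison, which the header does not name, were not used. The annotation release of the counting is not given in the sources used here.

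A gene name table gave 16275 symbols and GENCODE release 29 a further 1475; GENCODE exons gave lengths and overlaps. Genes that reached 10 in 2 or more libraries were fitted with limma 3.58.1 (R 4.3.3) on log2(value + 1), with a mean-variance trend, all 6 libraries and no replicate block, and Benjamini-Hochberg adjustment over 17742 genes; an adjusted p under 0.05 was called. Alternatives used edgeR 4.0.16 and DESeq2 1.42.0 on the recovered reads, other scaling, pseudocount, filter, samples and variance model, and left out each library. Fits were tested on simulated data. Named genes were the 10 enzymes, up to 3 genes per list and comparison with the smallest adjusted p, and the 3 nearest patterns to IMPDH2 and HPRT1; RRM2, NME6, NME1, XDH, IMPA1 and the marker genes were named in addition, after their values were seen. Members and lists were chosen with earlier results of these data known. Some marker genes are not reported here.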

Additional observations from a re-analysis of the deposited data

How the results depend on the processing

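Of 378 values of single enzymes under the 14 alternatives, 330 kept their direction and their side of the threshold, 22 lost a call, 15 gained one and 11 changed sign, none of them a called value. edgeR, DESeq2, TMM scaling, a pseudocount of 10 and no filter each left the counts of called enzymes at 3, 3 and 5. TMM shifted log2 values by at most 0.0113. The calls of single genes outside the 9 enzymes, SLC29A2 and RRM2B among them, were not followed through the alternatives.

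With only the 2 groups compared, 6 enzymes were called in shIMPDH2 against shLuc, beside 36.5% of all genes (17.0% in the reported fit). With no mean-variance trend the counts were 2 in shIMPA1, 0 in shIMPDH2 and 3 between the knockdowns, beside 19.8%, 9.73% and 16.4% of all genes (30.2%, 17.0% and 26.1% in the reported fit). Leaving out 1 library gave 2 to 6, 0 to 6 and 2 to 7, from 2147 to 7940, 773 to 6386 and 1430 to 7052 called genes in all; the cause was not tested. The IMPDH2 share of IMPDH transcripts per longest transcript was 77.7% in shLuc, 78.1% in shIMPA1 and 65.2% in shIMPDH2.

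The changes of sign each came from leaving out 1 library, which gave -0.107 to 0.0849 for IMPDH1, -0.088 to 0.149 for IMPDH2 and -0.192 to 0.531 for GMPR in shIMPA1, -0.0896 to 0.0648 for GMPS and -0.124 to 0.0087 for PNP in shIMPDH2, and -0.0975 to 0.0385 for NT5C2 between the knockdowns. The GMPR value of 0.531, without shIMPA1 replicate 1, passed the threshold (limma adjusted p = 0.0204).

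The labels state no pairing by replicate number. Deviations from the group means correlated at 0.04, -0.05 and 0.00 between the groups. These values show no large shared replicate effect, but cannot show whether the libraries were made in pairs. With the replicate block the counts were 3, 3 and 5, and the genes called in all were 5298, 2939 and 4537.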
